A study of Mus musculus with 6 samples.

Results

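The genes described here are 9 long noncoding RNA genes, Neat1, Malat1, Gas5, Snhg1, Snhg8, Snhg12, Dancr, H19 and Meg3. They were taken by name from the 55487 genes of a count table of mouse liver, and all 9 were found in it. Liver RNA was sequenced from 6 wild-type male C57BL/6J mice on normal chow, with 1 library per mouse. The control group was 3 mice injected subcutaneously with GalNAc-siNC, a control siRNA. The other group was 3 mice injected in the same way with GalNAc-siRnf10 (GalNAc-siRnf10-2 in the study), an siRNA against Rnf10, which encodes an E3 ubiquitin ligase. Livers were taken at 17 weeks of age, and all 6 libraries carried the same batch label. The GalNAc ligand delivers the siRNA to hepatocytes through the asialoglycoprotein receptor, whereas the RNA came from whole liver, so that a change in the RNA of each cell cannot be told apart from a change in the number of cells that make it. The comparison asks how liver RNA differed between mice given the Rnf10 siRNA and mice given the control siRNA.

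Long noncoding RNAs are transcripts that are processed much like mRNAs but encode no known long protein. Gas5, Snhg1, Snhg8, Snhg12 and Dancr are host genes of small nucleolar RNAs (snoRNAs): the snoRNA is cut out of an intron and guides the modification of ribosomal and other RNAs, and the spliced host RNA is exported or turned over on its own. Box C/D snoRNAs guide 2′-O-methylation and box H/ACA snoRNAs guide pseudouridylation. Spliced Gas5 is also a known substrate of nonsense-mediated decay, and it was named for its accumulation in growth-arrested cells. Malat1 and Neat1 stay in the nucleus, where Malat1 is found in speckles rich in splicing factors and the long form of Neat1 is the scaffold of paraspeckles. H19 and Meg3 are imprinted RNAs made from the maternal chromosome. H19 is abundant in fetal liver and is shut down after birth.

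The snoRNAs that the host genes carry show how the hosts differ. The annotation (GENCODE M21, build GRCm38) placed 25 snoRNA genes inside the 5 hosts at 23 separate positions, since the models of Snord80 and of Snora16a are each listed under a pair of identifiers. Gas5 held 10 of them, Snhg1 8, Snhg12 5, and Snhg8 and Dancr 1 each. A box C (TGATGA) near the 5′ end followed by a box D (CTGA) near the 3′ end was found in 8 of 10 snoRNAs of Gas5, in 6 of 8 of Snhg1 and in 1 of 5 of Snhg12. The ACA that ends an H/ACA snoRNA, followed by the last 3 bases, was found in 3 of 5 snoRNAs of Snhg12 and in those of Snhg8 and Dancr. The remaining 5 matched neither set of letters as searched. These counts are of identifiers, so that Snord80 in Gas5 and Snora16a in Snhg12 each count under both of theirs. Of 1507 annotated snoRNA genes of the mouse, 20.3% held the box C and D letters and 17.0% the ACA. Examples of each kind follow, in lower case with the boxes in capitals.
Gm26224 in Gas5, chr1:161035394-161035473, plus strand: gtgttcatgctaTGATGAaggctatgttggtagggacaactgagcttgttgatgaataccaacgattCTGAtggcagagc
Snord47 in Gas5, chr1:161038082-161038158, plus strand: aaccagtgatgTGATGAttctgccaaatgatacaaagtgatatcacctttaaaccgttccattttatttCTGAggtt
Gm25855 in Snhg1, chr19:8723993-8724064, plus strand: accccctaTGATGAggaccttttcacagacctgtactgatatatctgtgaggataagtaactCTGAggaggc
Gm24453 in Snhg1, chr19:8724868-8724943, plus strand: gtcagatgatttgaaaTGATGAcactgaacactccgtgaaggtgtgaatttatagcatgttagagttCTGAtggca
Snora61 in Snhg12, chr4:132310240-132310369, plus strand: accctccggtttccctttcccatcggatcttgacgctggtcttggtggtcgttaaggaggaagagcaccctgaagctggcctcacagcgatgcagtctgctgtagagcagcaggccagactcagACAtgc
Snora24 in Snhg8, chr3:123507937-123508066, minus strand: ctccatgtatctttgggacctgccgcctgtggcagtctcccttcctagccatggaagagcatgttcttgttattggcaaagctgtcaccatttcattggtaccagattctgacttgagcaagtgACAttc
Snora26 in Dancr, chr5:74093530-74093650, plus strand: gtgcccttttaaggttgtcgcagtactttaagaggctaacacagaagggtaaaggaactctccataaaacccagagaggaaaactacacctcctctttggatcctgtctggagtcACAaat
By these letters Gas5 and Snhg1 carry mostly box C/D snoRNAs, Snhg8 and Dancr carry the H/ACA kind, and Snhg12 carries both. Gas5 and Snhg1 are called below, but not every host of box C/D snoRNAs was. Rian, another such host, had a log2 fold change of 0.18 and was not called. With 5 host genes the kinds are a description, and no test was made of their relation to the changes.

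**Figure D1:**
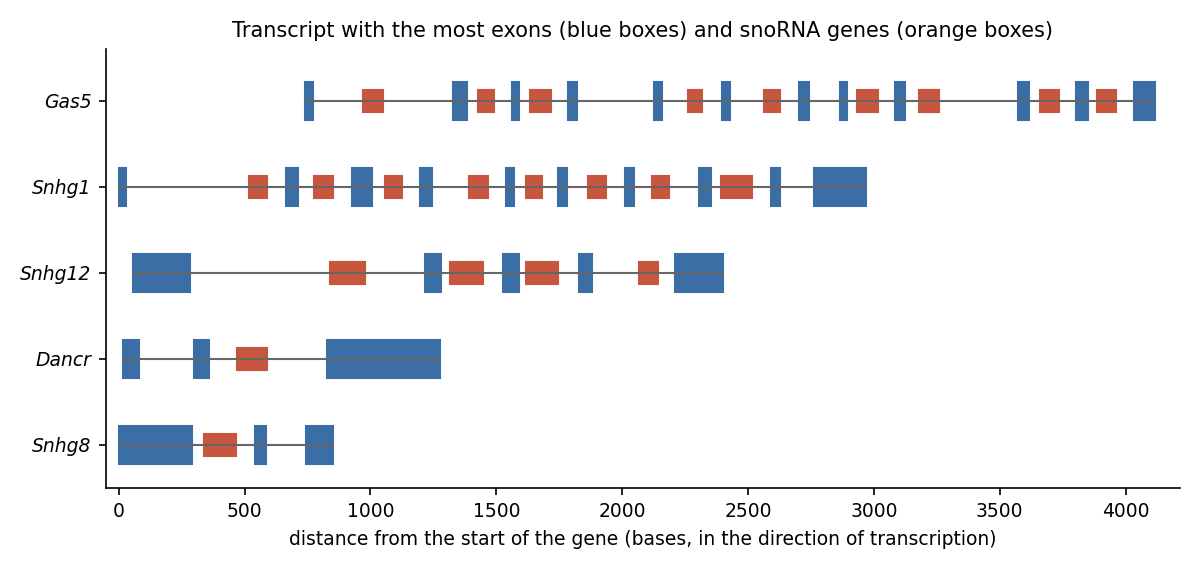
Exons (blue) and snoRNA genes (orange) of the 5 host genes by distance from the gene's start in bases, along the annotated transcript with the most exons. Each snoRNA lies between exons of that transcript, 10 in Gas5 (an overlapping pair drawn as 1), 8 in Snhg1, 5 in Snhg12 (an overlapping pair drawn as 1), and 1 each in Dancr and Snhg8.

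Transcripts of several snoRNA hosts, like the mRNAs of ribosomal proteins, are known to begin with a run of pyrimidines. The RefSeq start sites (build GRCm38.p6) of 7 of the 9 genes could be read. The stretch from 10 bases before to 50 bases after the start is shown for 6 of them. Of these, Gas5, Snhg1 and Malat1 are called below, and Snhg8, Snhg12 and Dancr are not. Capitals mark the longest unbroken run of C and T between 10 bases before and 15 bases after the start. This run need not begin the transcript, so its length does not measure what the RNA begins with. It spans the annotated start in Gas5, Snhg8 and Snhg12, begins after it in Snhg1 and Dancr, and lies wholly before it in Malat1.
Gas5, chr1:161035156-161035215, plus strand: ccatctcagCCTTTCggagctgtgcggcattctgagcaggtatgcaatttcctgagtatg
Snhg1, chr19:8723477-8723536, plus strand: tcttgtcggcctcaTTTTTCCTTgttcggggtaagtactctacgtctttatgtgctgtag
Snhg8, chr3:123508287-123508346, minus strand: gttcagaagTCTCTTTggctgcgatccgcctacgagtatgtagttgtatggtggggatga
Snhg12, chr4:132308668-132308727, plus strand: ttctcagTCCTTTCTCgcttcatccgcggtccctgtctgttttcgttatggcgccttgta
Dancr, chr5:74093050-74093109, plus strand: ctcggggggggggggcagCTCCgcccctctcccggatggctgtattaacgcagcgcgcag
Malat1, chr19:5802623-5802682, minus strand: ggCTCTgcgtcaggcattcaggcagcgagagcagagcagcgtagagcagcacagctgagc
The run was 9 bases long in Snhg1 and in Snhg12, a length reached by 5.87% of 32851 promoter windows. It was 7 bases long in Snhg8 (15.2% of windows) and 6 at this start of Gas5 (24.4%). In Dancr and Malat1 it was 4 bases long (62.1%). A second RefSeq start of Gas5 lies upstream of this one and had a run of 3 (83.9% of windows), and the starts of Meg3 had runs of 5 (40.7%) and 2 (97.7%).

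The 3′ ends of Malat1 and Neat1 bear on how these libraries saw them. The library kit selects polyadenylated mRNA, whereas mature Malat1 and the long form of Neat1 end in a genome-encoded A-rich tract that folds back on U-rich stretches as a triple helix. The tract was searched in the longest annotated transcript as a run of at least 5 A followed by GCAAAA, with at least 2 T-rich stretches (3 or more T, then CTTTT or GCTTTT) in the 100 bases that end with it, and these are in capitals.
Malat1, chr19:5795982-5796081, minus strand: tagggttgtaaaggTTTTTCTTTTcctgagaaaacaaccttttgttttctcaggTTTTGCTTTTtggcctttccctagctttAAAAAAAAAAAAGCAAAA
Neat1, chr19:5824708-5824807, minus strand: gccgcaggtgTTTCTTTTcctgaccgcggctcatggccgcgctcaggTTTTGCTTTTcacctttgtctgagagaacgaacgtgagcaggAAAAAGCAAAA
The whole pattern was found in the longest transcript of 3 of 14034 tested genes searched (Malat1, Neat1 and Sox4), and the A-rich run alone in 1.13%. The pattern describes the known ends of Malat1 and Neat1, so its presence in them was fixed in advance. In Neat1 it is the last 100 bases of the gene model, and in Malat1 a further 292 bases follow it in the model.

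Total counts ranged from 26854377 to 33058645 per library, and 14046 genes passed a filter on low counts and were tested with edgeR's quasi-likelihood test. A total of 3 counts, used here as the detection floor, was 9.07e-06% to 1.12e-05% of a library, a limit that covers counting error only. Rnf10 itself had normalized read counts of 3868, 4536 and 4040 in the GalNAc-siNC mice and of 1738, 1820 and 1793 in the GalNAc-siRnf10 mice, a log2 fold change of -1.22 ± 0.07 (SE, n = 3 per group, edgeR adjusted p = 3.29e-09). Library counts of the control mice varied more than those of the treated mice: chi-square per gene was 30.8 and 30.1 between GalNAc-siNC mouse 1 and the other controls, 10.3 between those 2 controls, and 4.70 to 5.38 within the treated group. GalNAc-siNC mouse 1 held the lowest of the 6 values in all 5 snoRNA host genes described here and in Neat1, against 24.0% of all tested genes, and the part of this mouse in the results is therefore given beside them.

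Of the 9 genes, 8 passed the filter and H19 did not. The RNA of 3 of the 8 rose in the GalNAc-siRnf10 mice, Gas5, Snhg1 and Malat1, and none fell. Across all tested genes 14% were called at an adjusted p under 0.05, 6.71% as higher and 7.28% as lower, beside which stand the 3 of 8 (37.5%). The fitted log2 fold change was above 0 for all 8, with a median of 0.40, beside a median of 0.0022 and 50.3% above 0 over all tested genes. Without GalNAc-siNC mouse 1 all 8 were still above 0. The changes of Gas5, Snhg1, Snhg8, Snhg12, Dancr and Neat1 were then smaller, as given below for each. The values of the groups did not overlap for 4 of the 8 (Gas5, Snhg1, Malat1 and Meg3), all with the treated mice higher, whereas 32.8% of all tested genes did not overlap and 16.5% did so with the treated mice higher. With 3 mice per group, the exact two-sided permutation test of a single gene cannot give a p below 0.1, which was its value for these 4.

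**Figure D2:**
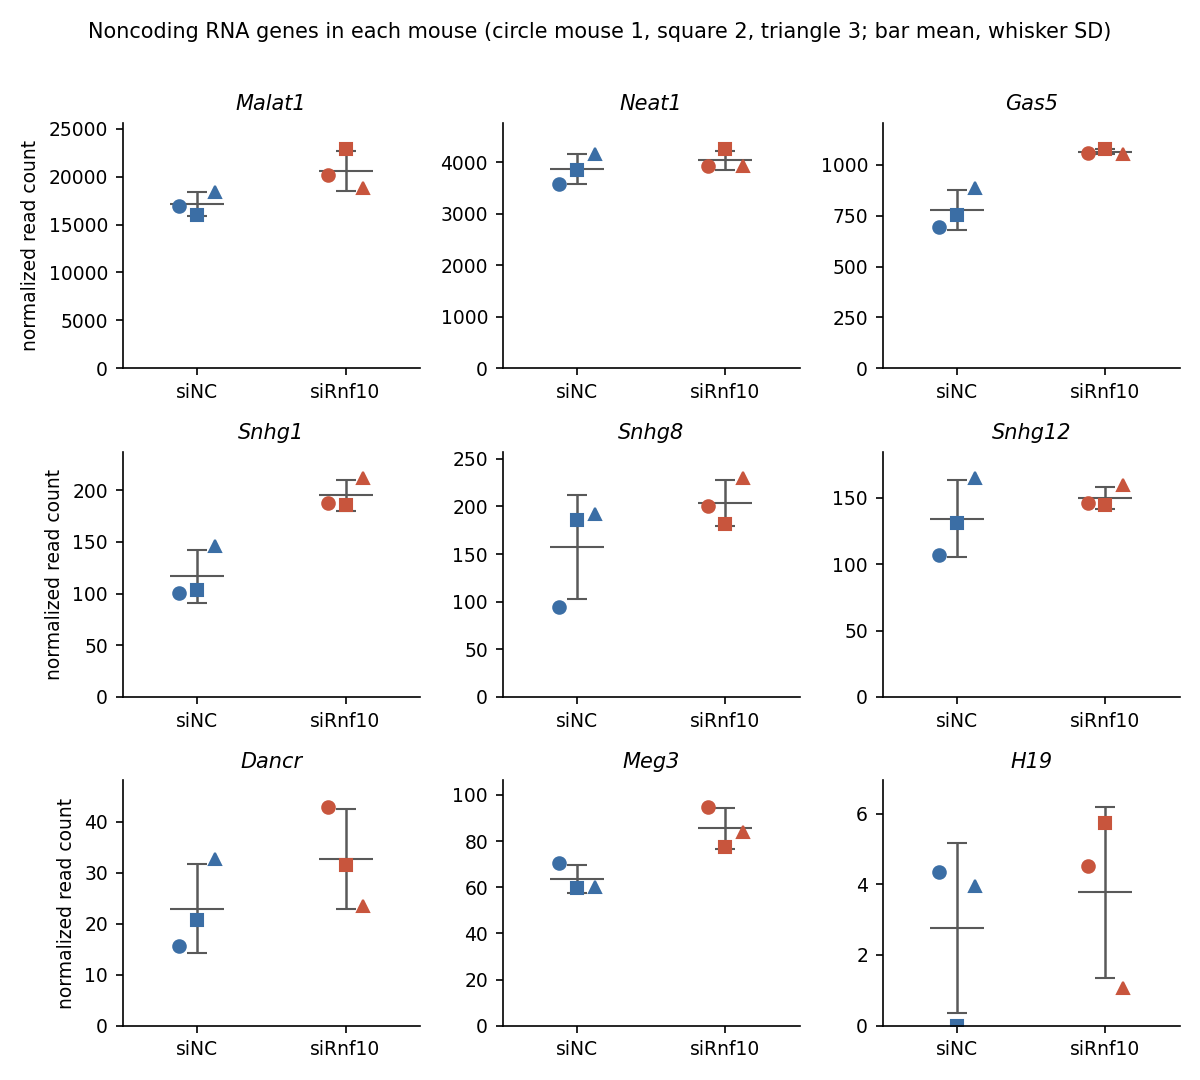
Normalized read count (linear axis from 0) of each of the 9 genes in each of the 6 mice, with GalNAc-siNC in blue, GalNAc-siRnf10 in orange, horizontal bars for the group means and whiskers for the SD (n = 3). The groups are separate for Malat1, Gas5, Snhg1 and Meg3 and overlap for Neat1, Snhg8, Snhg12, Dancr and H19.

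Gas5, the host of 10 snoRNA genes, rose, with the smallest error of the 5 hosts. Normalized read counts were 696, 754 and 884 in the control mice and 1060, 1077 and 1052 in the treated mice. Every treated mouse was above every control, and the treated mice lay close together while the controls were spread. Its mean rose by 36.6%, from 778 ± 96.7 to 1063 ± 12.4 (SD, n = 3 each), and the log2 fold change was 0.45 ± 0.09 (SE, 95% interval 0.26 to 0.64, edgeR adjusted p = 0.00254). Without GalNAc-siNC mouse 1, its lowest value, the log2 fold change was 0.37 and the gene was still called (adjusted p = 0.000603).

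Snhg1, the host of 8 snoRNA genes, rose. The control mice had normalized read counts of 101, 103 and 146 and the treated mice of 188, 185 and 212. The groups did not overlap, and GalNAc-siNC mouse 3 was the control nearest to the treated mice. Its mean rose by 67.0%, from 117 ± 25.5 to 195 ± 14.7 (SD, n = 3 each), with a log2 fold change of 0.74 ± 0.17 (SE, 95% interval 0.39 to 1.09, edgeR adjusted p = 0.00552). This was the largest change of the 8 tested genes, except that Dancr (0.70) was above Snhg1 (0.68) without GalNAc-siRnf10 mouse 3, and it was 0.64 without GalNAc-siNC mouse 1. Gas5 and Snhg1 were called under each of the 15 other ways of fitting that were tried, the omission of each mouse included.

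Snhg8 was not called. Its normalized read counts were 94.9, 186 and 192 in the control mice and 200, 182 and 230 in the treated mice. Apart from GalNAc-siNC mouse 1, which stood far below the rest, the groups overlapped. The log2 fold change was 0.38 ± 0.24 (SE, 95% interval -0.15 to 0.91, edgeR adjusted p = 0.347), and it was 0.11 without that mouse (adjusted p = 0.689) and 0.15 with offsets for GC content and gene length.

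Snhg12, which holds snoRNAs of both kinds, was likewise not called. Normalized read counts were 107, 131 and 165 in the control mice and 146, 144 and 160 in the treated mice, so the treated values lay inside the range of the controls. The log2 fold change was 0.16 ± 0.17 (SE, 95% interval -0.20 to 0.52, edgeR adjusted p = 0.597). It was 0.016 when GalNAc-siNC mouse 1 was left out, 0.33 without GalNAc-siNC mouse 3, 0.075 with limma voom and 0.084 with the GC content and length offsets.

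Dancr, an RNA known for holding back the differentiation of progenitor cells, was the host with the fewest reads and was not called. It had normalized read counts of 15.7, 20.6 and 32.6 in the control mice and 43.0, 31.6 and 23.4 in the treated mice, with wide overlap. The log2 fold change of 0.51 ± 0.36 (SE, 95% interval -0.26 to 1.28, edgeR adjusted p = 0.404) had an interval that covered 0. Single mice moved it, to 0.28 without GalNAc-siNC mouse 1, 0.84 without GalNAc-siNC mouse 3 and 0.27 without GalNAc-siRnf10 mouse 1, so that it was above the value of Gas5 with all mice and below it (0.37 and 0.45) in the first and the last of these.

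Malat1 rose, and it took 0.0546% to 0.0756% of the counts of a library. Its normalized read counts were 16955, 15997 and 18427 in the control mice and 20174, 22866 and 18805 in the treated mice. The groups did not overlap, but GalNAc-siRnf10 mouse 3 was only just above the highest control. The mean rose by 20.4%, from 17127 ± 1224 to 20615 ± 2066 (SD, n = 3 each), with a log2 fold change of 0.27 ± 0.07 (SE, 95% interval 0.11 to 0.42, edgeR adjusted p = 0.0209). The call was lost when GalNAc-siNC mouse 1 (adjusted p = 0.174), GalNAc-siNC mouse 2 (0.124), GalNAc-siRnf10 mouse 1 (0.0724) or GalNAc-siRnf10 mouse 2 (0.168) was left out, and with offsets for GC content and gene length (0.141).

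Neat1, transcribed in the same direction as Malat1 and separated from it by 22035 bases, did not pass the test. Its normalized read counts were 3579, 3842 and 4155 in the control mice and 3920, 4249 and 3928 in the treated mice, and the groups overlapped. The log2 fold change was 0.06 ± 0.07 (SE, 95% interval -0.08 to 0.21, edgeR adjusted p = 0.607). It was 0.011 without GalNAc-siNC mouse 1, its lowest value, 0.12 without GalNAc-siNC mouse 3 and 0.025 without GalNAc-siRnf10 mouse 2, and it was 0.029 with limma voom and 0.099 with the GC content and length offsets. The lower bound for Malat1 lies inside the interval of Neat1, and the difference between the 2 genes was not tested. A short and a long form of Neat1 share the 5′ part of the gene, and a count per gene does not separate them.

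**Figure D3:**
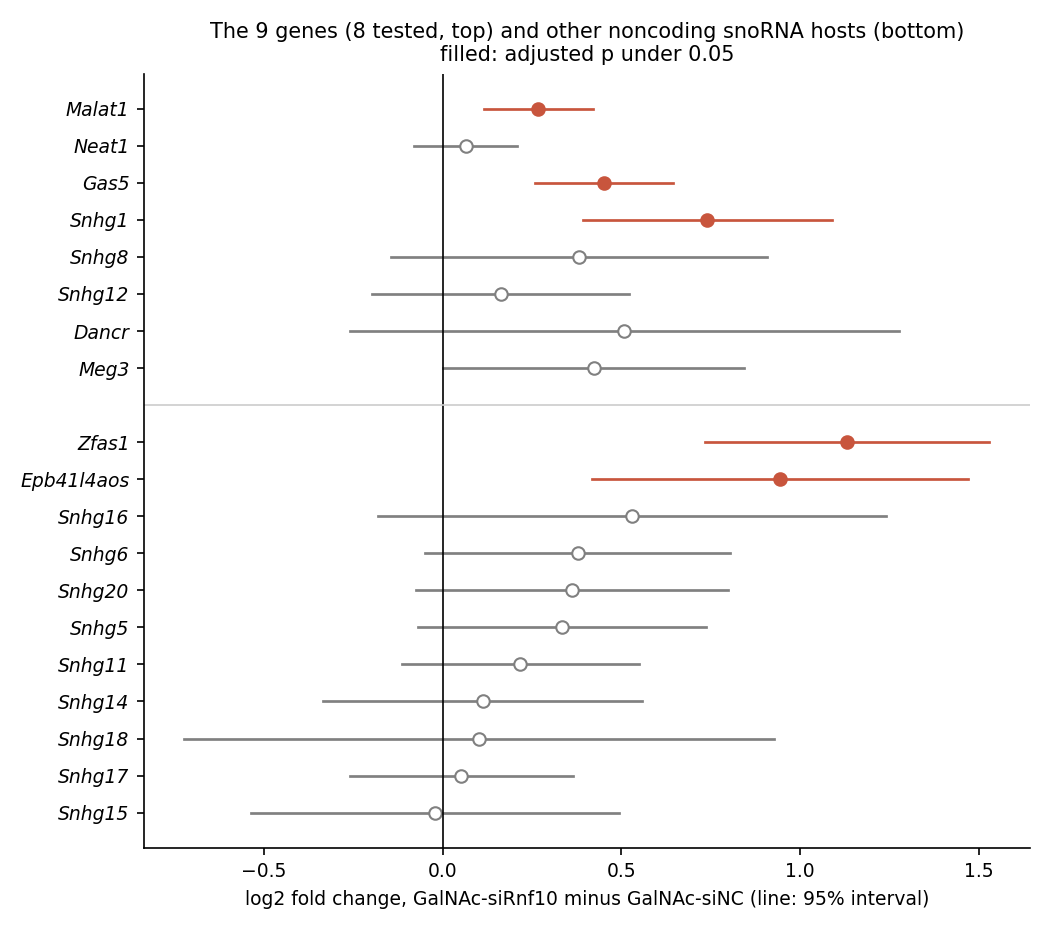
Log2 fold change (points) with 95% interval (lines) in GalNAc-siRnf10 minus GalNAc-siNC mice for the 8 tested genes and, below the grey line, 11 other noncoding snoRNA hosts, with filled orange points for an adjusted p under 0.05. All 8 points at the top are above 0 and the intervals of Snhg8, Snhg12, Dancr and Neat1 cover 0, while Zfas1 and Epb41l4aos lie highest at the bottom.

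**Figure D4:**
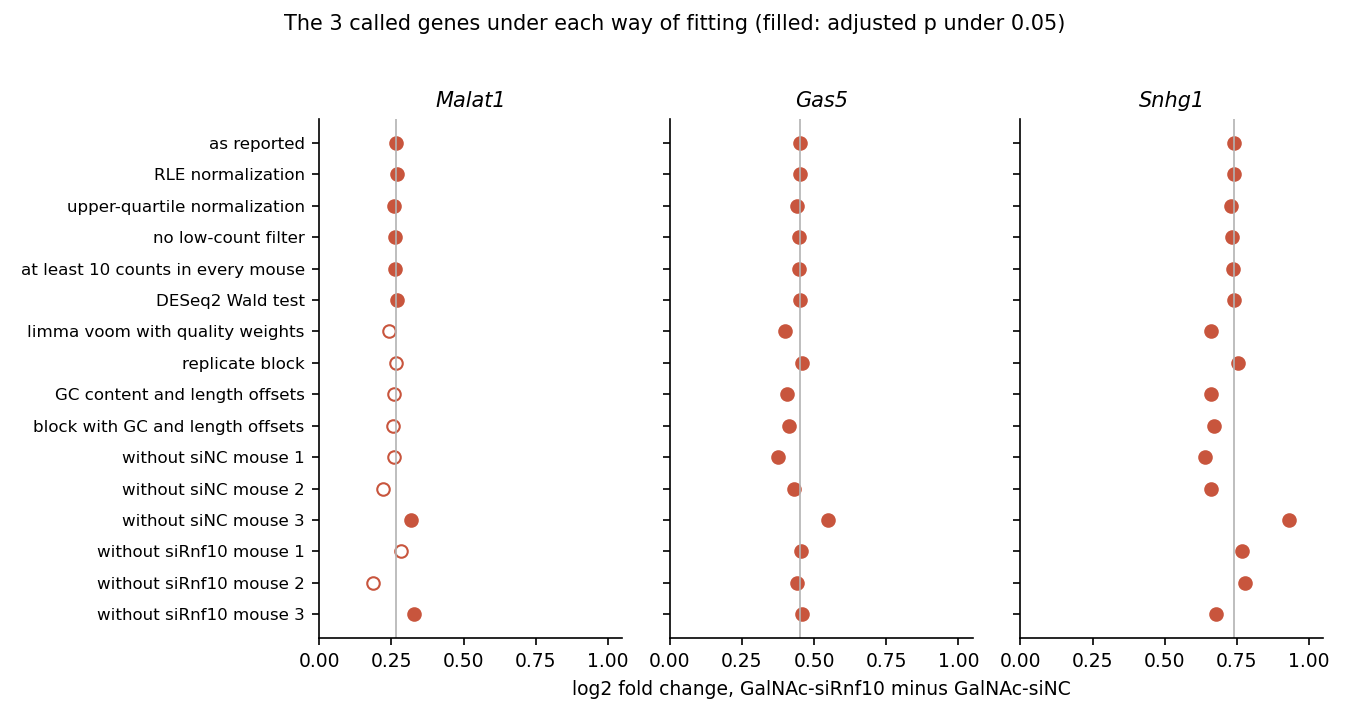
Log2 fold change of Malat1, Gas5 and Snhg1 (1 panel each) as reported and under 15 other ways of fitting (rows), filled where the adjusted p was under 0.05 and with a grey line at the reported value. Gas5 and Snhg1 are filled in every row, whereas Malat1 is open in 8 rows.

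Meg3, the imprinted RNA of the Dlk1-Dio3 domain, was low in these livers and was not called. Normalized read counts were 70.5, 59.8 and 60.3 in the control mice and 94.9, 77.4 and 84.1 in the treated mice. Every treated mouse was above every control. The mean was 63.5 ± 6.05 and 85.5 ± 8.83 (SD, n = 3 each), and the log2 fold change of 0.42 ± 0.20 (SE, 95% interval 0.00066 to 0.84) had an unadjusted edgeR p of 0.0497 and an adjusted p of 0.187. Its neighbour Rian, an RNA of the same domain that hosts box C/D snoRNAs, had a log2 fold change of 0.18 ± 0.24 (edgeR adjusted p = 0.680).

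H19 was at the limit of detection. Its raw counts were 5, 0 and 4 in the control mice and 4, 6 and 1 in the treated mice, so that 1 library of each group was under the floor of 3 counts. It failed the filter and no fold is given. Igf2, the growth factor gene that shares enhancers with H19, had no count in any of the 6 mice.

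Levels of different genes were compared per length, as CPM per kilobase, that is, counts scaled to library size and divided by the length of the gene model. In the control mice Malat1 stood at 82.6 ± 5.90 (SD, n = 3), above 96.7% of the tested genes by its mean over all mice. Gas5 (6.97 ± 0.866), Neat1 (6.26 ± 0.468) and Snhg8 (6.22 ± 2.14) followed, and their order lay within their spread. The length used for Neat1 was 20771 bases, the whole gene, and reads of its short form were divided by that length too. The place of Neat1 among these levels therefore depends on the shares of its short and long forms, which were not measured. Snhg12 (1.88 ± 0.408) and Snhg1 (1.32 ± 0.290) were close to each other, and Dancr (0.330 ± 0.125), Meg3 (0.118 ± 0.0113) and H19 (0.0379 ± 0.0329) were lowest. In the treated mice Gas5 reached 9.52 ± 0.111 and Snhg1 2.21 ± 0.167 on this scale, and Snhg12 was at 2.10 ± 0.119.

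The length used for a level per kilobase matters for the hosts, because their gene models contain transcripts that retain introns. The models of Snhg1, Snhg8, Snhg12 and Dancr cover 100% of the gene from start to end and that of Gas5 covers 91.3%. Reads of spliced and of unspliced host RNA were therefore counted together and cannot be told apart here. With the longest single transcript as the length, Gas5 was at 10.3 in the controls and 14.0 in the treated mice, beside 6.26 and 6.54 for Neat1. The longest transcript of Neat1 is the whole gene, so this length leaves its level unchanged and does not allow for its short form. Snhg12 was then at 2.94 and 3.28 and Snhg1 at 1.44 and 2.41, so that the closeness of these levels depends on the length.

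The snoRNAs themselves could not be followed. All 25 snoRNA genes inside the hosts were listed at 0 in each of the 6 mice, and all 25 lie wholly inside exons of some host transcript. Over the whole table, 1 of 127 snoRNA genes that lie wholly inside host exons had a count, against 154 of 416 (37.0%) of those outside host exons. How the counting treated a read that falls on both genes is not given in the sources used here, and the kit is not made for RNAs without a poly(A) tail. The zeros therefore say nothing of the snoRNAs' levels.

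The other noncoding snoRNA hosts were read from a list of 16 genes, of which 14 were found and 11 were tested. Zfas1 and Epb41l4aos rose (18.2%, beside 6.71% of all tested genes), none fell, and 10 of 11 had a log2 fold change above 0, with a median of 0.33. Zfas1, which hosts 3 box C/D snoRNAs, had normalized read counts of 66.2, 83.5 and 120 in the control mice and 185, 206 and 197 in the treated mice. These groups did not overlap, and the log2 fold change was 1.13 ± 0.19 (SE, edgeR adjusted p = 0.000484), larger than that of any of the 8 tested genes above. Epb41l4aos had 42.7, 63.9 and 94.9 in the control mice and 135, 146 and 104 in the treated mice, a log2 fold change of 0.94 ± 0.25 (adjusted p = 0.0178). Its call was lost without GalNAc-siNC mouse 2, GalNAc-siRnf10 mouse 1 or GalNAc-siRnf10 mouse 2.

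When every gene with an annotated snoRNA inside it that the annotation does not class as protein-coding was taken instead of the list, 67 genes were found and 27 were tested, the 5 hosts above among them. The 27 include Cct6a (log2 fold change 0.05, not called), which is known to encode a chaperonin subunit and is classed there as a processed transcript. Of these 27, 6 rose (22.2%, beside 6.71% of all tested genes) and none fell. A log2 fold change above 0 was found for 24 (88.9%, beside 50.3% of all tested genes), and the median of the 27 was 0.36 (0.37 without Cct6a). The 6 became 3 without GalNAc-siRnf10 mouse 1 or mouse 2, and 4 without GalNAc-siNC mouse 2. Without the 5 hosts, 4 of 22 rose (18.2%). They were Zfas1, Epb41l4aos, 2410006H16Rik (log2 fold change 0.65, edgeR adjusted p = 0.0316) and Gm32624 (0.71, adjusted p = 0.0475), the last 2 named after their values were seen. The call of 2410006H16Rik was lost without GalNAc-siNC mouse 2, GalNAc-siRnf10 mouse 1 or GalNAc-siRnf10 mouse 2, with limma voom and with the GC content and length offsets. Gm32624 lost its call without any mouse but GalNAc-siNC mouse 2, and with DESeq2, limma voom, the mouse number as a block or the offsets. Of the 22, 19 had a log2 fold change above 0 and the median was 0.35. It was 0.27 for these 22 when GalNAc-siNC mouse 1 was left out.

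Protein-coding snoRNA hosts, mostly genes of ribosomal proteins and of translation and nucleolar factors, were read from a list of 38 genes that were all tested. Of these, 9 rose (23.7%, beside 6.71% of all tested genes) and none fell, and the median log2 fold change was 0.30. Hspa8, a constitutive heat shock chaperone, rose by 0.73 on the log2 scale, Taf1d, a subunit of the RNA polymerase I factor SL1, by 0.52, Wdr43, a factor of small ribosomal subunit assembly, by 0.45, and Nop56, a core protein of box C/D particles, by 0.45. The ribosomal protein genes Rpl17 and Rpl30 rose by 0.34 and 0.30, and each lost its call without GalNAc-siNC mouse 2 or any one GalNAc-siRnf10 mouse and with the GC content and length offsets. The call of Taf1d was lost without GalNAc-siNC mouse 2, GalNAc-siRnf10 mouse 1 or GalNAc-siRnf10 mouse 2. GalNAc-siNC mouse 1 held the lowest of the 6 values in 28 of the 38 genes (73.7%). The count of called genes moved with single mice, to 22 without GalNAc-siNC mouse 1, 6 without GalNAc-siNC mouse 2, 21 without GalNAc-siNC mouse 3, 4 without GalNAc-siRnf10 mouse 1 or mouse 2 and 5 without GalNAc-siRnf10 mouse 3. Over all 222 tested protein-coding genes with an annotated snoRNA, 24 rose (10.8%, beside the same 6.71%). Their median was 0.048, beside 0.30 for the list. The 24 became 46 without GalNAc-siNC mouse 1, 38 without GalNAc-siNC mouse 3 or without the low-count filter, and 13, 14 and 14 without GalNAc-siRnf10 mouse 1, 2 and 3. The 5 that fell, which became 2, 2 and 3 without GalNAc-siRnf10 mouse 1, 2 and 3, were Champ1 (-0.63), Mgat5 (-0.43), Ero1lb (-0.32), Uso1 (-0.23) and Chd4 (-0.22), named after their values were seen.

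The proteins that bind snoRNAs or assemble their particles were read as a list of 20 genes, all tested. Nop58 and Nop56, the paired core proteins of box C/D particles, and Nolc1, a chaperone of snoRNPs, rose, and Rpap3, a cochaperone of particle assembly, fell. Nop58 had normalized read counts of 520, 478 and 493 in the control mice and 797, 715 and 649 in the treated mice, a log2 fold change of 0.53 ± 0.10 (SE, edgeR adjusted p = 0.00116). Nop56 had 540, 596 and 535 in the control mice and 773, 737 and 769 in the treated mice, and Nolc1 901, 926 and 899 against 1263, 1276 and 1292. All 3 were separate between the groups, GalNAc-siNC mouse 1 was not the lowest value of any of the 3, and all 3 were called under each of the 15 alternatives. The log2 fold change of Rpap3 was -0.39, a call that was lost without GalNAc-siNC mouse 2, GalNAc-siRnf10 mouse 2 or GalNAc-siRnf10 mouse 3. The 4 called genes were 20% of the list, beside 14% of all tested genes, and the median of the list was 0.22.

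**Figure D5:**
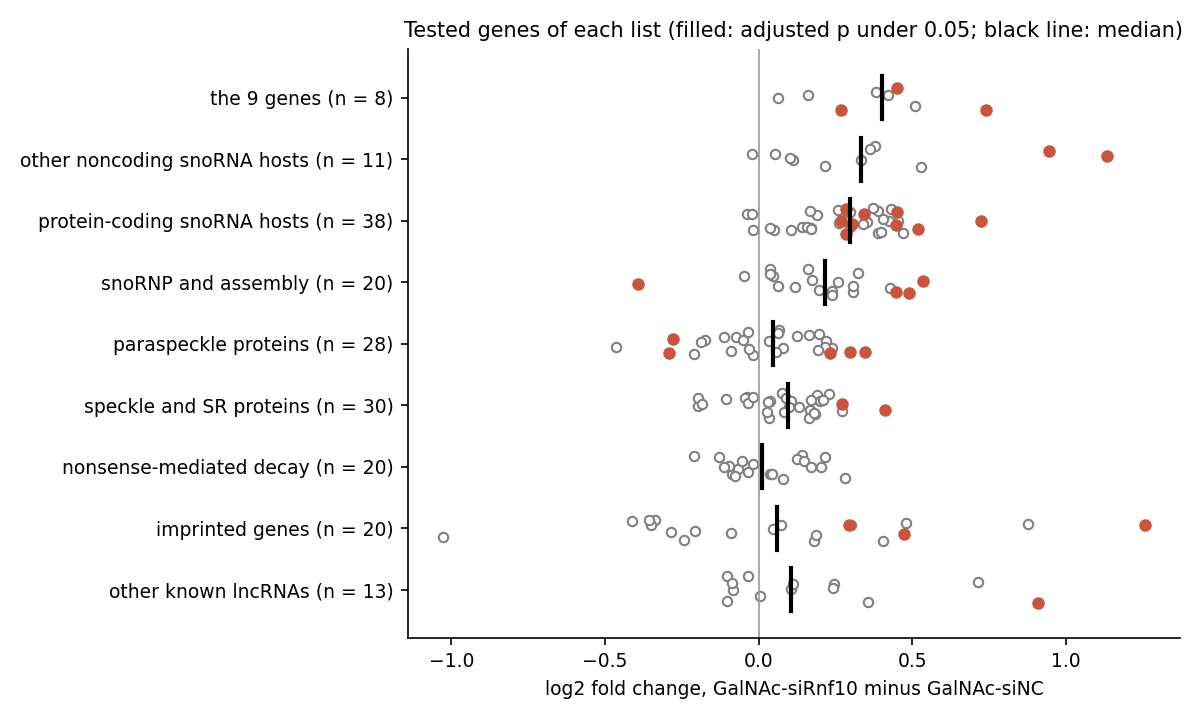
Log2 fold change in GalNAc-siRnf10 minus GalNAc-siNC mice of each tested gene (points, filled orange for an adjusted p under 0.05) in the 9 lists, with black lines at the medians. The medians of the noncoding and protein-coding snoRNA hosts, 0.33 and 0.30, lie near that of the 8 tested genes at 0.40, and that of nonsense-mediated decay factors lies at 0.0099.

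Proteins of the bodies in which Neat1 and Malat1 reside were called in shares near or below the 14% of all tested genes, 17.9% of the paraspeckle proteins and 6.67% of the speckle proteins. Among 28 paraspeckle proteins, all tested, Sfpq (log2 fold change 0.35), Hnrnph1 (0.30) and Tardbp (0.23) rose, Smarca4 (-0.29) and Hnrnpul1 (-0.28) fell, and the median was 0.046. Sfpq, a core protein that Neat1 needs to form paraspeckles, had normalized read counts of 1489, 1386 and 1390 in the control mice and 1767, 1808 and 1855 in the treated mice, with no overlap. Sfpq was called under each of the 15 alternatives, and the other 4 lost their calls under 2 to 5 of them. The 5 called genes became 9 without GalNAc-siNC mouse 1, 2 without GalNAc-siRnf10 mouse 1 or mouse 3 and 1 without GalNAc-siRnf10 mouse 2. Of 30 nuclear speckle proteins and SR factors, all tested, Clk1, a kinase of SR proteins (0.41), and Luc7l3, a spliceosomal factor (0.27), rose, none fell, and the median was 0.095. These 2 became 8 without GalNAc-siNC mouse 1 and 1 without any other mouse, and they became 8 with the GC content and length offsets. Luc7l3 lost its call without any mouse but GalNAc-siNC mouse 1.

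Of 20 factors of nonsense-mediated decay, all tested, edgeR called none and 3 had an unadjusted p under 0.05, with a median log2 fold change of 0.0099. DESeq2 called none, limma voom with quality weights 1, and edgeR without GalNAc-siNC mouse 1 called 2.

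Around the imprinted genes, 20 of 34 listed genes were tested, 3 rose and none fell (15% called, beside 14% of all tested genes), and the median log2 fold change was 0.061. Cdkn1c, a cell cycle inhibitor made from the maternal chromosome, had normalized read counts of 9.58, 8.25 and 15.8 in the control mice and 27.1, 22.9 and 30.9 in the treated mice. Its log2 fold change was 1.26 ± 0.40 (SE, edgeR adjusted p = 0.0455), and the call was lost under 9 of the alternatives, among them DESeq2 and the omission of any mouse but GalNAc-siNC mouse 3. Mrpl23, a mitochondrial ribosomal protein gene and the nearest tested gene on one side of H19, rose by 0.47 on the log2 scale (adjusted p = 0.0134), a call that was lost without GalNAc-siNC mouse 2 or GalNAc-siRnf10 mouse 1. Slc22a18, a transporter gene of the same chromosome region, rose by 0.29, a call that was lost without GalNAc-siRnf10 mouse 1 or mouse 2. Without GalNAc-siRnf10 mouse 1, none of the list was called, and 1 was called without GalNAc-siNC mouse 2 or GalNAc-siRnf10 mouse 2. Dlk1, the paternally expressed neighbour of Meg3, had no count in any mouse.

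Among 27 other known long noncoding RNAs, 13 were tested and the median log2 fold change was 0.10. Fendrr, an RNA known from lung and heart development, was the 1 gene that rose (7.69% of the list, beside 6.71% of all tested genes), from 20.9, 33.0 and 26.7 in the control mice to 50.9, 47.8 and 52.2 in the treated mice (log2 fold change 0.91, edgeR adjusted p = 0.0411). Its call was lost without GalNAc-siNC mouse 1, GalNAc-siNC mouse 3 or any one GalNAc-siRnf10 mouse. Norad, which binds Pumilio proteins, had normalized read counts of 2638, 2594 and 2719 in the control mice and 2536, 2543 and 2687 in the treated mice (log2 fold change -0.03, adjusted p = 0.785) and was named after its values were seen.

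Genes next to those that rose did not all move with them. Slc3a2, which starts 105 bases from Snhg1 on the opposite strand, had a mean normalized read count of 888 ± 79.0 in the control mice and 854 ± 46.7 in the treated mice (SD, n = 3 each, log2 fold change -0.05, edgeR adjusted p = 0.745). Zbtb37, a zinc finger gene that runs against Gas5 and overlaps its span by 428 bases without sharing an exon base, rose from 283 ± 25.7 to 426 ± 44.7 (log2 fold change 0.59, adjusted p = 0.00241). Frmd8, a neighbour of Neat1, had a log2 fold change of -0.26 (adjusted p = 0.0830). Cd81, the nearest tested gene on the other side of H19, had one of -0.18 (adjusted p = 0.0481) and Gm4617, far from Snhg8, one of -0.77 (0.0490), and both were called. Another 7 of the nearest tested genes, not called, lay between -0.28 and 0.28. Whether the counting used the strand is not given in the sources used here, so reads of Gas5 and Zbtb37 from the shared stretch may have been mixed.

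No counted gene shares exon bases with any of the 9. All of the snoRNA, microRNA and other small RNA genes that overlap their exons were at 0 counts in every mouse, as were Gm37376, which lies against Malat1, and Gm43416, which lies against Dancr. Gm26906 lies against Meg3 over 1228 exon bases and is not analysed here.

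The tested genes whose values over the 6 mice were most like those of each gene were taken by the root mean square difference of log2 normalized counts, each centred on its own mean, which includes the difference between the groups. For Gas5 these were Rida (0.024) and Fabp2 (0.025), for Snhg1 H2-K2 (0.096) and Tmem204 (0.099), and for Malat1 Afg1l (0.037) and Prkrip1 (0.042). They were Mylip (0.021) and Rdh7 (0.024) for Neat1, Tead1 (0.029) and Zfp597 (0.049) for Meg3, Mrpl48 (0.041) and Snrnp27 (0.042) for Snhg12, Lsm7 (0.082) and Mcts2 (0.088) for Snhg8, and 1600002K03Rik (0.12) and Gm12251 (0.16) for Dancr. None of the 9 genes was among these nearest genes of another.

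Markers of the cell types of liver were read beside these results. Of 8 hepatocyte markers 4 rose (Tat, Ttr, Alb and Cps1). Apoa1 (log2 fold change 0.08), Asgr1 (0.11), Hnf4a (0.08) and Asgr2 (-0.12) were not called. The summed normalized counts of the 8 were 1541300 to 1640170 in the control mice and 2349170 to 2429660 in the treated mice. Most of each sum was Alb (means 1159030 and 1805580). Among the cholangiocyte markers Spp1 fell, and the sums of the list were 2663 to 2765 and 1542 to 1640. Most of each sum was Spp1 (means 1836 and 982). Krt19 (-0.20), Krt7 (-0.26) and Epcam (-0.15) were not called, and 0 of the 6 tested had a log2 fold change above 0. Of 8 sinusoidal endothelial markers Clec4g and Lyve1 rose (sums 2833 to 2935 and 3106 to 3251), and of 9 stellate cell and fibroblast markers Dcn, Reln and Colec11 rose (3996 to 4210 and 4707 to 4795). Members of these last 2 lists with a log2 fold change below 0, none of them called, were Stab2 (-0.26), Lrat (-0.27), Col1a1 (-0.26), Des (-0.20) and Acta2 (-0.10). The median log2 fold changes of the 2 lists were 0.23 and 0.03. None of 8 Kupffer cell and macrophage markers was called by edgeR or DESeq2, with 2 at an unadjusted p under 0.05 and overlapping sums of 5340 to 6145 and 5619 to 5929. None of 4 tested lymphocyte markers was called by edgeR or DESeq2, none had an unadjusted p under 0.05, and their sums overlapped (280 to 386 and 277 to 359). S100a9, the 1 tested of 5 neutrophil markers, fell, and the sums were 33.1 to 68.2 in the control mice and at most 23.7 in the treated mice. None of 3 tested fetal liver and hepatic tumour markers was called by edgeR or DESeq2, none had an unadjusted p under 0.05, the sums overlapped (173 to 189 and 140 to 203), and Igf2 and Dlk1 were at 0. Of 10 pancreas, muscle and adipose markers, 6 were at 0 in every mouse and Cela1, the 1 tested, rose (sums 451 to 665 and 837 to 915). The part of these shifts in the values of the 9 genes was not tested.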

How the data were processed

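Raw read counts per gene were deposited by the authors for 3 GalNAc-siNC and 3 GalNAc-siRnf10 mouse livers, without normalization. They came from stranded, poly(A)-selected paired-end libraries mapped with HISAT2 to GRCm38 (mm10). The counting tool, its strand setting and the annotation release are not given in the sources used here. Gene model lengths, also deposited in that table, equalled those of GENCODE M21 for 99.0% of the 55141 genes with a symbol, and 346 identifiers had none. Groups were taken from the labels.

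The test was edgeR 4.0.16 in R 4.3.3 (low counts removed by filterByExpr, TMM, robust quasi-likelihood fit, treatment as the only covariate), with Benjamini-Hochberg adjustment over all 14046 tested genes and a threshold of 0.05 for a call. The dispersion shared by all genes was 0.00861. Normalized read counts were scaled to the mean TMM library size, and 95% intervals used the fit's standard error and degrees of freedom. Libraries held 26854377 to 33058645 counts.

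The 9 genes, 8 related gene lists and 9 marker lists were chosen with earlier results of these data known. Named beside the 9 genes are Rnf10, at most 6 called genes of each list by size of change, 2 genes most like each gene (mean normalized count of at least 50, pseudocount 0.5), overlapping genes and the nearest tested neighbours. Names missing from the table were matched through RefSeq synonyms (Snhg16, Norad, Oip5os1, Cerox1 and Chaserr). Snhg4 and Snhg7 were not matched and Rmrp, with several identifiers, was left out. Results of a few neighbouring and marker genes are not reported here. Sequences came from GENCODE M21 transcripts and RefSeq promoter windows (GRCm38.p6). H19 and Neat1 had no window.

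Alternatives were RLE and upper-quartile factors, DESeq2 1.42.0, no filter, a minimum of 10 counts per mouse, limma 3.58.1 voom with quality weights, the mouse number as a block, offsets for GC content and length, other thresholds and lengths, and each mouse left out. Python 3.11.15, numpy 2.4.6, pandas 2.3.3, scipy 1.17.1 and matplotlib 3.10.9 were used.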

Additional observations from a re-analysis of the deposited data

How the results depend on the processing

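The log2 fold changes of all 8 tested genes kept their sign under all 15 alternatives, and Gas5, Snhg1 and Rnf10 stayed called. Malat1 was no longer called with limma voom (0.24), the replicate block (0.27), GC content and length offsets (0.26), or both (0.26). With each mouse left out in turn, its log2 fold change was 0.19 to 0.33. The labels number the mice without saying that equal numbers form a pair. No sign of pairing was seen (correlations of deviations -0.00099, 0.027 and -0.034), which cannot exclude it. With the replicate block 2 of the 8 genes and 1816 of all tested genes were called. The 3 called genes became 1 with a log2 fold change of at least 0.5 required. Called genes of the lists moved as follows. At an adjusted p under 0.01 they were 1 of the other noncoding hosts, 5 protein-coding hosts, 3 paraspeckle proteins, 1 speckle protein and 0 imprinted genes and other long noncoding RNAs. With all annotated hosts they were 4 noncoding (4 also without Cct6a, left out after the data were seen) and 29 protein-coding. Without the low-count filter they were 17 protein-coding hosts, 7 snoRNP genes and 2 other long noncoding RNAs, and DESeq2 called 14 protein-coding hosts. With limma voom, 5 speckle proteins and 1 decay factor were called, with the GC content and length offsets 8 and 2, and 3 other long noncoding RNAs, and with the offsets and the replicate block 6, 3 and 3. With each mouse left out, called genes were 1 to 2 of the other noncoding hosts, 4 to 22 protein-coding hosts, 1 to 9 paraspeckle proteins, 1 to 8 speckle proteins, 0 to 2 decay factors, 0 to 3 imprinted genes and 0 to 1 other long noncoding RNA. With the longest transcript as the length, CPM per kilobase (GalNAc-siNC and GalNAc-siRnf10) were 10.3 and 14.0 for Gas5, 2.94 and 3.28 for Snhg12, 0.147 and 0.198 for Meg3, and 2.41 for Snhg1 with GalNAc-siRnf10. Of the 23 called list entries named, 9 were called under every alternative. Both counts hold Nop56 once for each of its lists, protein-coding hosts and snoRNP genes. The causes were not tested. The depth leaves H19 unmeasured and the intervals of Dancr, Snhg8 and Snhg12 wide.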
